A study of Mus musculus with 24 samples.

Results

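The genes described here are 7 secreted ligands of blood and lymphatic vessels, found in the count table by their symbols: Vegfa, Vegfb, Vegfc and Pgf of the vascular endothelial growth factor (VEGF) family, Angpt1 and Angpt2 of the angiopoietin family, and the angiopoietin-like gene Angptl4. All 7 were among the 21878 genes of the table, and all 7 passed the filter on low counts, which left 13501 genes to test. Their NCBI gene identifiers are 22339 (Vegfa), 22340 (Vegfb), 22341 (Vegfc), 18654 (Pgf), 11600 (Angpt1), 11601 (Angpt2) and 57875 (Angptl4). RNA came from hearts of ovariectomised (OVX) mice taken 3 weeks after a myocardial infarction (MI), so every group carried both the ovariectomy and the infarct, and hearts without either were not analysed here. The mice had received the adeno-associated virus AAV9, either empty (AAV9-Empty) or overexpressing the microRNA miR-21 (AAV9-OE miR-21), and some had trained by swimming before the infarction. The mice that swam are called trained and the others untrained, which gave 4 groups: untrained empty-vector (6 libraries), trained empty-vector (6), untrained miR-21 (6) and trained miR-21 (5). No source used here names the promoter of the vector, the age or strain of the mice or the part of the heart taken, and the table held 0 rows for the miR-21 precursor, so the overexpression itself was not checked.

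VEGF-A is the main growth factor of blood vessels: it is made by cardiomyocytes and other cells when oxygen is short and acts through the endothelial receptor VEGFR2 (Kdr), while VEGFR1 (Flt1) binds it and limits its action. VEGF-B and placental growth factor (Pgf) bind VEGFR1, VEGF-C acts mainly through VEGFR3 (Flt4) on lymphatic endothelium, and the neuropilins Nrp1 and Nrp2 are co-receptors. Angiopoietin-1 keeps vessels stable through the endothelial receptor Tie2 (Tek), angiopoietin-2 is made largely by endothelial cells and often opposes it, and Angptl4 is a fasting- and lipid-induced protein that inhibits lipoprotein lipase and is abundant in fat.

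Since the vector carried miR-21, its sequence is shown with the only match to it among the ligands. The RefSeq mature sequence of mouse miR-21a-5p (GRCm38.p6, 22 bases) follows, with the seed, bases 2 to 8, in capitals, and then the stretch of the Vegfc 3' untranslated region (UTR), taken from GENCODE M21 transcripts, with the complement of the seed in capitals.
miR-21a-5p: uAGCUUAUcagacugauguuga
Vegfc 3' UTR: aaaattgtattATAAGCTatgaagttcag
The word searched, on the transcript strand only, was ATAAGCT, at bases 380 to 386 of the 1028 bases of the Vegfc 3' UTR. It was in the 3' UTR of 1 of the 7 ligands, against 1018 of 12982 tested genes that had a 3' UTR of 30 bases or more (7.84%). The shorter word TAAGCT, which lies inside the first, was in the same ligand alone, against 3489 of those genes (26.9%). The UTRs of the ligands differ in length, from 417 bases in Vegfb to 2247 in Angpt1. A match is a description of letters, not a measured site, and the Vegfc values below did not pass the test with the miR-21 vector.

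Libraries held 12744241 to 14657630 counts, and none of the 253 pairs of libraries was identical. The heart muscle marker Myh6 stood at 22182 to 52322 counts scaled to library size (CPM) and the endothelial marker Pecam1 at 225 to 366. The adipocyte marker Adipoq stood at 25.5 to 27 CPM in 3 libraries (untrained empty-vector replicates 2 and 5, and trained miR-21 replicate 2) and at 0 to 2.32 in the other 20. The mean log2 score over 7 tested adipocyte markers was 2.82 to 3.04 in those 3 and −1.38 to 0.83 in the rest. For the ligands, values without these 3 are given where they end or add a call, turn a direction or change a fold by over 1.5 times. For other genes they are given only in part, so calls not listed here can also end or be added without these 3. In bulk heart RNA, fewer cells of a type and less RNA per cell cannot be told apart. The untrained and trained empty-vector groups also differ in the number series of the sample titles (leading digits 13 against 20), and only the trained miR-21 group holds both, so within the empty-vector groups the series and training cannot be told apart. In the trained miR-21 group, replicates 1 and 2 have 13 and replicates 3 to 5 have 20. Where the series is a term in a fit below, its size was estimated from that group alone.

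Per length of transcript, Vegfb and Vegfa were by far the most abundant of the ligands. The authors' deposited FPKM (fragments scaled for transcript length and library size) averaged 211 for Vegfb over the 23 libraries, with a range of 155 to 256. Vegfa averaged 116 FPKM with a range of 89.9 to 144, which did not overlap that of Vegfb. Angpt1 averaged 11 FPKM (4.71 to 22.5), and its range lay below that of Vegfa throughout. The rest followed with ranges that overlapped their neighbours: Vegfc at 6.07 (4.9 to 8.19), Angptl4 at 4.7 (1.22 to 20.3), Pgf at 2.86 (1.4 to 4.71) and Angpt2 at 1.64 (0.833 to 4.31). The counts behind these levels ran from 5456 to 8100 for Vegfa but from 39 to 137 for Pgf, from 39 to 223 for Angpt2 and from 31 to 545 for Angptl4, so counting error weighs most on the last 3. Between libraries, the coefficient of variation in CPM was 12.3% for Vegfc, 12.9% for Vegfa and 15% for Vegfb, and 85.3% for Angptl4. Leaving out the 3 adipocyte-high libraries gave 12%, 9.46%, 9.34% and 33.2%, so the order of the first 3 turned on those libraries.

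**Figure D1:**
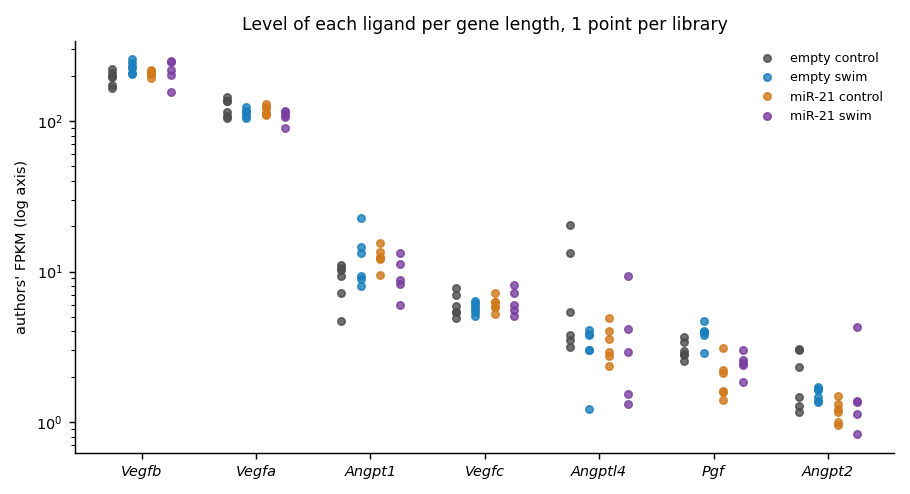
Level of each ligand in FPKM, on a log axis, with 1 point per library coloured by group (control stands for untrained, swim for trained). Vegfb (155 to 256) and Vegfa (89.9 to 144) stand above the other 5 ligands in every library.

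The clearest difference among the ligands was in Pgf, a ligand of VEGFR1, which was lower with the miR-21 vector. In trained mice, Pgf stood at 6.13 CPM at lowest, 8.48 at the median and 10.2 at highest with the empty vector (8.38 ± 1.31, SD, n = 6). With the miR-21 vector its 5 libraries stood at 5.4, 5.59, 5.78, 3.97 and 5.68 CPM (5.29 ± 0.745, SD, n = 5). All 5 miR-21 libraries lay below the lowest of the 6 empty-vector libraries, so the groups did not overlap. For this and other separations described below, the share over all tested genes was not counted. Pgf fell by 0.66 on the log2 scale (SE 0.17, adjusted p = 0.0281, edgeR quasi-likelihood test), to 0.631 of the empty-vector level. It was 1 of 7 ligands called lower in that comparison and no ligand was called higher, where 2.71% of all tested genes fell and 1.87% rose. Without the 3 adipocyte-high libraries the fall was 0.68 (adjusted p = 0.0128), with 8.62% of genes called lower. With the title number series as a term, Pgf fell by 0.70 (adjusted p = 0.0481). That fit sets the 6 trained empty-vector libraries, all with leading digits 20, against only replicates 3 to 5 of the trained miR-21 group. The call was lost in 5 of 33 alternatives: with only the groups compared in the fit (adjusted p = 0.0527), without replicate 2 (0.0531) or 3 (0.0572) of the trained empty-vector group, and without replicate 1 (0.0523) or 4 (0.0752) of the trained miR-21 group. The log2 difference ran from −0.74 to −0.57 across all 33. In the authors' deposited table the same difference was −0.66 with an unadjusted p of 0.00469 and an adjusted p of 0.231.

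In untrained mice, Pgf was also lower with the miR-21 vector, but not past the test. Its lowest, median and highest CPM were 5.62, 6.34 and 7.57 with the empty vector (6.48 ± 0.829, SD, n = 6). With the miR-21 vector they were 3.29, 4.23 and 7.05 (4.55 ± 1.42, SD, n = 6). The groups overlapped through a single miR-21 library, replicate 4 at 7.05 CPM, and the other 5 lay at 5.01 or lower. The log2 difference was −0.51 ± 0.16 (SE, adjusted p = 0.0714, edgeR), and −0.68 (adjusted p = 0.0356) without that library, and it was also called with DESeq2 (adjusted p = 0.0359). Trained mice had higher Pgf means under both vectors, again not past the test: the log2 difference was 0.37 ± 0.16 with the empty vector (adjusted p = 0.163, higher in 5 of 6 libraries than the untrained mean) and 0.22 ± 0.17 with the miR-21 vector (adjusted p = 0.484). The vector's effect on Pgf was not shown to differ with training (interaction −0.15 ± 0.24, adjusted p = 0.741).

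**Figure D2:**
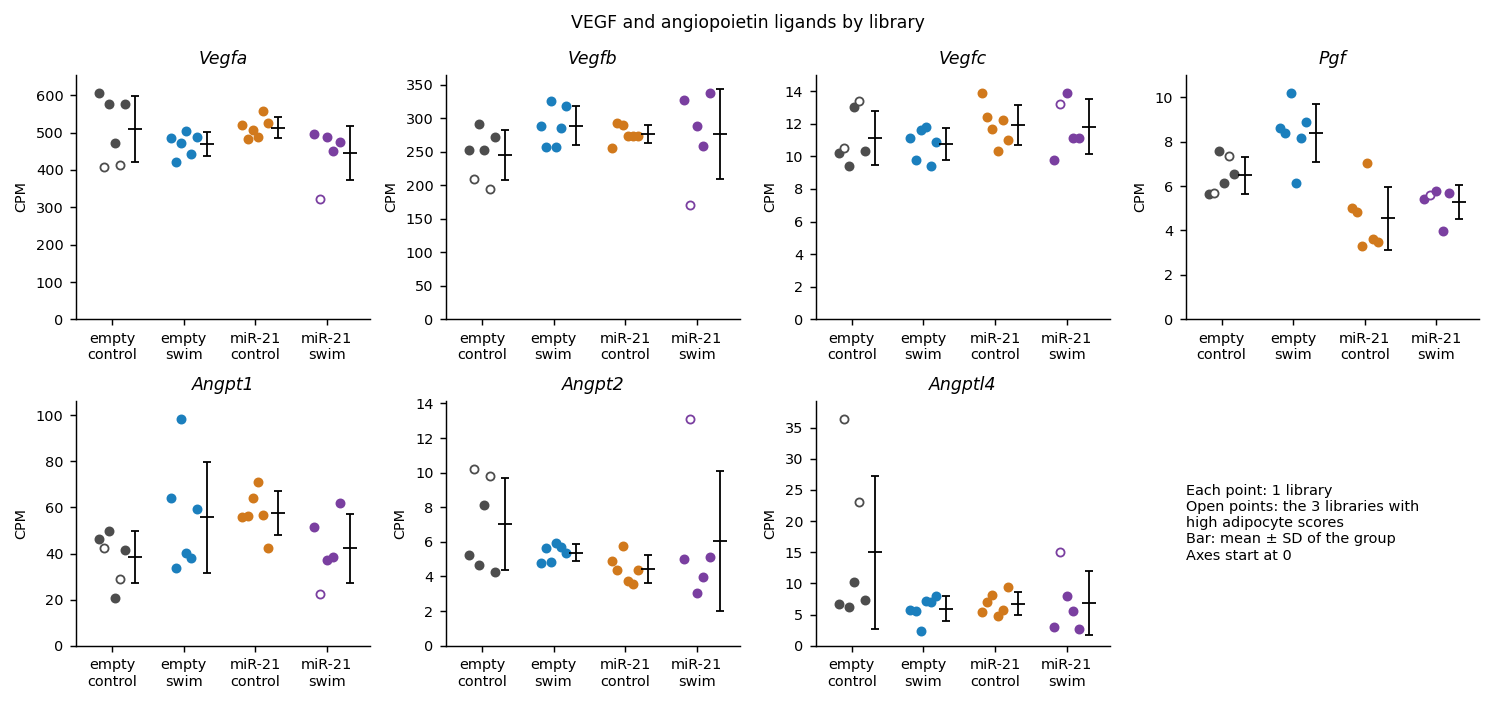
CPM of each of the 7 ligands by group, with 1 point per library and a bar for the mean ± SD; the 3 adipocyte-high libraries are open points. In the Pgf panel all 5 libraries of the trained miR-21 group (3.97 to 5.78) lie below all 6 of the trained empty-vector group (6.13 to 10.2).

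Vegfa, the principal blood vessel growth factor, passed the test in no comparison in the edgeR model of the 4 groups and all libraries, and its groups overlapped. In untrained mice, its lowest, median and highest CPM were 409, 525 and 607 with the empty vector (509 ± 89, SD, n = 6) and 482, 514 and 558 with the miR-21 vector (514 ± 27.6, SD, n = 6). In trained mice they were 421, 479 and 504 with the empty vector (469 ± 31.3, SD, n = 6), and the 5 libraries with the miR-21 vector stood at 497, 321, 489, 451 and 474 (446 ± 72.3, SD, n = 5). The 3 adipocyte-high libraries held the lowest values of the series, at 409, 413 and 321 CPM against 421 to 607 in the other 20. With all libraries, the log2 difference for training under the empty vector was −0.12 ± 0.11 (adjusted p = 0.534, edgeR). Without the 3 adipocyte-high libraries Vegfa fell by 0.25 (SE 0.068, adjusted p = 0.0162), with 473 to 607 CPM in the 4 untrained libraries left against 421 to 504 in the trained ones, and with 5.55% of all tested genes called lower. It also fell with the adipocyte score as a covariate (by 0.36, adjusted p = 0.0195) and with limma voom and quality weights (by 0.23, adjusted p = 0.0406). The title number series as a term gave −0.32 (SE 0.20, adjusted p = 0.5). Between the vectors the log2 differences in Vegfa were 0.012 ± 0.11 in untrained and −0.072 ± 0.11 in trained mice (adjusted p = 0.952 and 0.765), and both changed sign without the 3 libraries (−0.12 and 0.031, adjusted p = 0.302 and 0.799).

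Vegfb, the most abundant ligand and one linked to fatty acid handling in muscle, passed the test in no comparison. Its mean was 245 ± 37 CPM in the untrained empty-vector group, 289 ± 29.3 in the trained empty-vector group, 277 ± 13.7 in the untrained miR-21 group (SD, n = 6 each) and 276 ± 67.6 in the trained miR-21 group (SD, n = 5). The lowest values were again in the adipocyte-high libraries, at 209, 194 and 170 CPM against 253 to 338 in the other 20. The largest log2 difference between groups was 0.24 ± 0.12, for training under the empty vector (adjusted p = 0.26, edgeR), and it was −0.069 with the adipocyte score as a covariate and −0.011 with the title number series as a term (adjusted p = 0.747 and 0.987).

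Vegfc, the lymphatic growth factor whose 3' UTR holds the seed match shown above, also passed the test in no comparison. It averaged 11.1 ± 1.65 CPM in the untrained empty-vector group and 11.9 ± 1.26 with the miR-21 vector (SD, n = 6 each), a log2 difference of 0.099 ± 0.10 (adjusted p = 0.529, edgeR). In trained mice it averaged 10.7 ± 0.959 with the empty vector (SD, n = 6), and the miR-21 libraries stood at 9.76, 13.2, 13.9, 11.1 and 11.1 CPM (11.8 ± 1.69, SD, n = 5), a log2 difference of 0.14 ± 0.11 (adjusted p = 0.512). In both settings the mean was higher, not lower, with the miR-21 vector, and the groups overlapped.

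Angpt1, the agonist of Tie2, had higher means with training alone and with the miR-21 vector alone than in the untrained empty-vector group, and a mean near that group's with both. Its lowest, median and highest CPM were 20.5, 42 and 49.9 in the untrained empty-vector group (38.3 ± 11.2, SD, n = 6). They were 33.9, 49.8 and 98.4 in the trained empty-vector group (55.7 ± 24.2, SD, n = 6) and 42.6, 56.4 and 70.9 in the untrained miR-21 group (57.7 ± 9.47, SD, n = 6). With both, the libraries stood at 51.4, 22.6, 37.2, 38.6 and 61.8 CPM (42.3 ± 14.9, SD, n = 5). All 6 libraries with the miR-21 vector alone lay above the mean of the untrained empty-vector group, but the groups overlapped. None of the differences passed the test: the log2 difference was 0.54 ± 0.26 for training under the empty vector (adjusted p = 0.222, edgeR) and 0.59 ± 0.26 for the miR-21 vector in untrained mice (adjusted p = 0.152). The interaction, the effect of training under the miR-21 vector minus that under the empty vector, was −0.99 ± 0.38 (unadjusted p = 0.0172, adjusted p = 0.152). Without the 3 adipocyte-high libraries it was −0.78 (adjusted p = 0.45). The authors' deposited table gives Angpt1 a log2 ratio of 0.59 for the miR-21 vector in untrained mice, with an adjusted p of 0.0244. The level of this gene, unlike that of Angpt2, was 22.6 to 42.4 CPM in the 3 adipocyte-high libraries and overlapped the 20.5 to 98.4 of the rest.

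Angpt2, the context-dependent antagonist, was highest in the 3 adipocyte-high libraries. They stood at 10.2, 9.79 and 13.1 CPM, against 3.04 to 8.15 in the other 20, with a median of 4.85. By group, Angpt2 averaged 7.05 ± 2.67 CPM in the untrained empty-vector group, 5.38 ± 0.477 in the trained empty-vector group and 4.44 ± 0.796 in the untrained miR-21 group (SD, n = 6 each). The trained miR-21 libraries stood at 5.03, 13.1, 3.04, 3.97 and 5.11 CPM (6.05 ± 4.04, SD, n = 5), with 1 library far above the other 4. Between the vectors in untrained mice the log2 difference was −0.67 ± 0.28 (adjusted p = 0.129, edgeR). It was −0.66 (adjusted p = 0.0208) without replicate 2 of the trained miR-21 group, −0.33 (adjusted p = 0.283) without all 3 adipocyte-high libraries, and 0.0075 (adjusted p = 0.999) with the adipocyte score as a covariate. The interaction was 0.85 ± 0.40 (adjusted p = 0.221) with all libraries and 0.011 (adjusted p = 0.993) without those 3. In FPKM, the ratio of Angpt1 to Angpt2 had group medians of 5.25 (untrained empty-vector), 7.22 (trained empty-vector), 9.83 (untrained miR-21) and 8.26 (trained miR-21). The lowest ratio of the series, 1.4, was in the adipocyte-high library of the last group.

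Angptl4, the lipase inhibitor, differed most between libraries, and its largest values were those of the 3 adipocyte-high libraries. They stood at 36.4, 23.1 and 15.1 CPM, and the other 20 lay between 2.3 and 10.2 with a median of 6.45. In the untrained empty-vector group the lowest, median and highest CPM were 6.14, 8.77 and 36.4 (15 ± 12.3, SD, n = 6). The mean was 5.96 ± 2.02 in the trained empty-vector group and 6.76 ± 1.81 in the untrained miR-21 group (SD, n = 6 each). With both, the libraries stood at 3, 15.1, 8.04, 5.52 and 2.64 CPM (6.86 ± 5.1, SD, n = 5). The log2 difference for training under the empty vector was −1.33 ± 0.46 (adjusted p = 0.0799, edgeR), and −1.34 (adjusted p = 0.0254) with DESeq2. It was −1.32 (adjusted p = 0.0409) without replicate 2 of the trained miR-21 group. Without the 3 adipocyte-high libraries it was −0.36 (adjusted p = 0.5), and with the adipocyte score as a covariate −0.013 (adjusted p = 0.989). The miR-21 vector in untrained mice gave −1.15 ± 0.46 (adjusted p = 0.118), −0.17 (adjusted p = 0.786) without those 3 libraries and 0.10 (adjusted p = 0.979) with the score as a covariate.

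**Figure D3:**
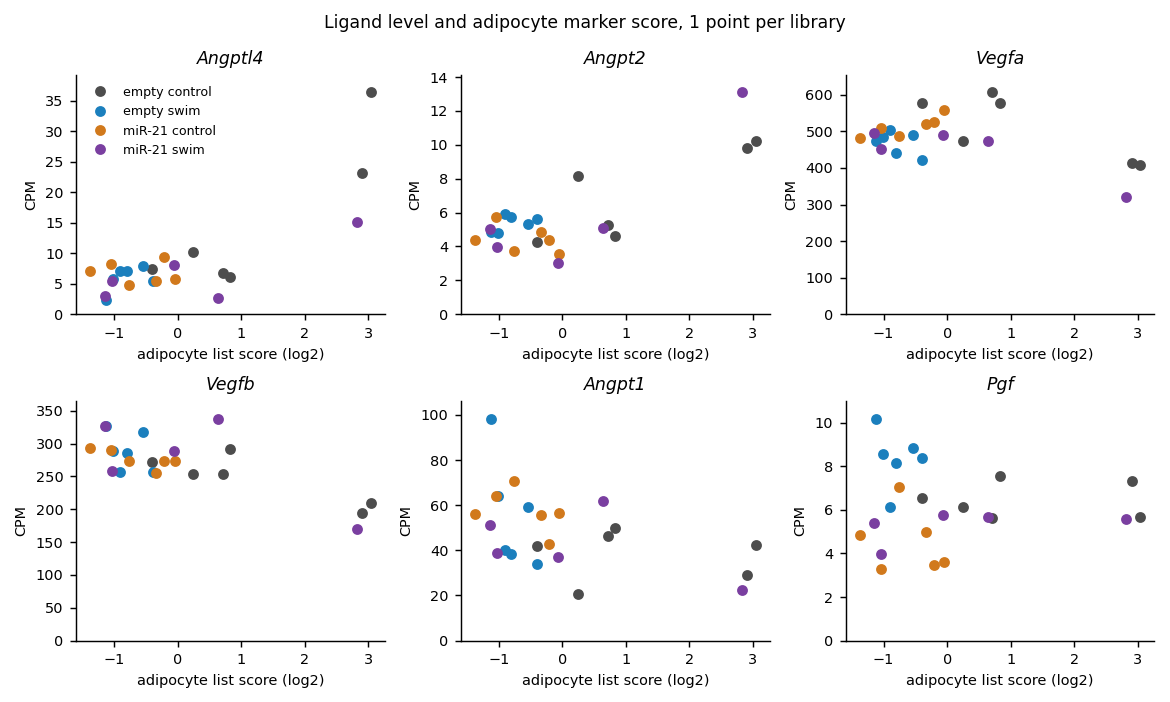
CPM of 6 of the ligands (Vegfc left out) against the mean log2 score of the adipocyte markers, with 1 point per library coloured by group. The 3 libraries with scores of 2.82 to 3.04 hold the 3 highest values of Angptl4 (15.1 to 36.4) and Angpt2 (9.79 to 13.1) and the 3 lowest of Vegfa (321 to 413) and Vegfb (170 to 209).

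Markers of other kinds differed in some or all of the same 3 libraries. The fat cell protease Cfd stood at 114 to 148 CPM in them against 0.153 to 8.47 in the rest. The mesothelial marker Upk3b reached 55.8 CPM in the trained miR-21 library of the 3, against at most 11.6 in the other 20. In the 2 untrained empty-vector libraries of the 3 it stood at 4.55 and 8.1, within the range of the other 20. The summed CPM of the 11 macrophage markers ran from 516 to 2510 in the untrained empty-vector group and from 366 to 2417 in the trained miR-21 group, the groups that hold the 3 libraries. It ran from 444 to 870 in the trained empty-vector group and from 355 to 1037 in the untrained miR-21 group. The mean log2 score of the fibroblast markers was 1.33, 1.314 and 1.194 in the 3 libraries. Untrained empty-vector replicate 4, which is not among them, had 1.278. That of the cardiomyocyte markers was −0.452, −0.212 and −0.457 in the 3, against −0.251 or higher in the rest. The part that these cell types have in the levels of Angptl4, Angpt2, Vegfa and Vegfb was not tested.

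Counted over the ligands, the comparisons gave few calls. For training under the empty vector 0 of 7 were called, where 7.46% of all tested genes were (4.18% rose and 3.28% fell), and 2 had an unadjusted p under 0.05 (3148 of all genes). With the miR-21 vector in untrained mice 0 of 7 were called, against 2.25% of all genes (0.881% rose and 1.37% fell), and 4 had an unadjusted p under 0.05 (3828 of all genes): Pgf, Angpt1, Angpt2 and Angptl4. With the miR-21 vector in trained mice 1 of 7 was called, against 4.58%. For training under the miR-21 vector 0 of 7 were called, against 0.17%, and 0 had an unadjusted p under 0.05 (2532 of all genes). For the interaction 0 of 7 were called, against 0.541%, and 2 had an unadjusted p under 0.05 (2899 of all genes). DESeq2 called 1, 1, 1, 0 and 0 ligands in these comparisons. Over all genes it called 1414, 1235, 970, 378 and 719, against 1007, 304, 618, 23 and 73 with edgeR. The median log2 difference of the 7 was −0.053, 0.012, −0.064, −0.0018 and −0.084 in the same order, beside −0.0048, −0.0048, 0.018, 0.029 and 0.0079 over all genes. The comparisons share groups and are not independent of each other.

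**Figure D4:**
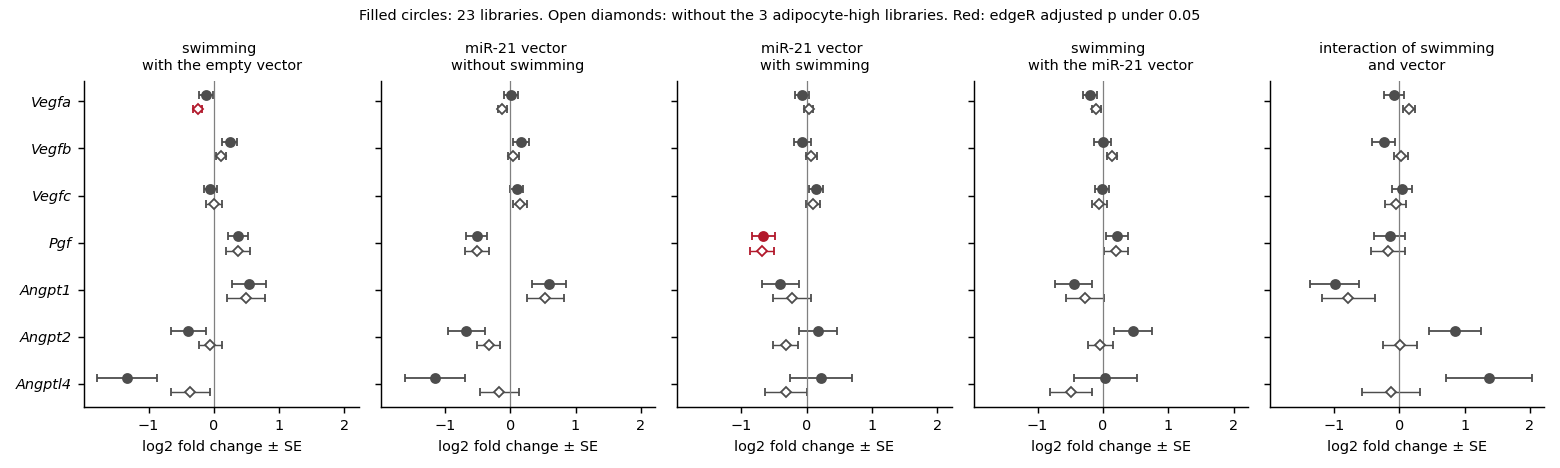
Log2 fold change of each ligand in the 4 group comparisons and the interaction, with bars of ± SE, from edgeR on all 23 libraries (filled circles) and without the 3 adipocyte-high libraries (open diamonds); red marks an adjusted p under 0.05. With all libraries the only call is Pgf with the miR-21 vector in trained mice (−0.66), and without the 3 Vegfa with training under the empty vector (−0.25) is also called.

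Of the 5 VEGF receptors and co-receptors, Nrp2, which binds VEGF-C and semaphorins, moved most. With the empty vector it stood at 67.2 to 102 CPM in untrained and at 103 to 163 in trained mice, and the groups did not overlap. It rose with training (log2 difference 0.58 ± 0.12, adjusted p = 0.00515, edgeR), as 1 of 5 receptors, where 4.18% of all tested genes rose. The 5 trained miR-21 libraries stood at 50.7 to 84.4 CPM, below all 6 trained empty-vector ones, and it fell by 0.82 (SE 0.13, adjusted p = 0.000926). Kdr, the main receptor of VEGF-A, fell in the same comparison, by 0.39 (SE 0.11, adjusted p = 0.039), so 2 of 5 fell and 0 rose, where 2.71% of all genes fell and 1.87% rose. Its libraries stood at 269 to 314 CPM with the empty vector and at 168 to 261 with the miR-21 vector. Flt1, the receptor of Pgf, did not pass the test there (0.15 ± 0.14, adjusted p = 0.591), with 130 to 174 CPM against 109 to 223. Flt4, the receptor of VEGF-C, fell with the miR-21 vector in untrained mice, by 0.51 (SE 0.10, adjusted p = 0.0165), as 1 of 5, where 1.37% of all genes fell. Of the 3 angiopoietin receptor genes, Tek rose with training under the empty vector (0.20 ± 0.061, adjusted p = 0.0471), where 4.18% of all genes rose. Its log2 difference with the miR-21 vector in trained mice was −0.21 (adjusted p = 0.0676).

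Of 13 genes known to respond to VEGF in endothelium, 2 rose and 1 fell with training under the empty vector, where 4.18% of all genes rose and 3.28% fell. Apln, the endothelial peptide apelin, rose by 1.02 on the log2 scale (SE 0.20, adjusted p = 0.00349, edgeR), from 8.96 to 16.1 CPM in untrained to 16.1 to 31.3 in trained mice. The basement membrane gene Nid2 rose (0.41, adjusted p = 0.0472) and the transcription factor gene Hlx fell (−0.28, adjusted p = 0.0367), but Hlx was not called without the 3 adipocyte-high libraries (−0.21, adjusted p = 0.12). Without those 3, Esm1 (−1.13, adjusted p = 0.0247) and Rcan1 (−0.49, adjusted p = 0.0347) were called lower instead. In that setting 2 of the 13 rose and 2 fell, where 6.06% of all genes rose and 5.55% fell. Between the vectors in trained mice 4 of 13 fell and 0 rose, where 2.71% of all genes fell and 1.87% rose, with a median log2 difference of −0.28 beside 0.018 over all genes. The 3 with the smallest p were Apln, which fell by 1.06 (SE 0.21, adjusted p = 0.00557), Nid2 (−0.64, adjusted p = 0.00704) and the endothelial and progenitor surface gene Cd34 (−0.63, adjusted p = 0.0172). Apln stood at 6.17 to 18 CPM in those 5 libraries. In untrained mice 1 of 13 fell with the miR-21 vector, where 1.37% of all genes fell: the calcineurin regulator Rcan1 (−0.69, adjusted p = 0.0281).

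Endothelial markers moved in the same comparisons. Of 12 markers, 5 rose and 0 fell with training under the empty vector, where 4.18% of all genes rose and 3.28% fell. They included Erg (0.48), Icam2 (0.58) and Cdh5 (0.44), while the median log2 difference of the 12 was 0.094, beside −0.0048 over all genes. Without the 3 adipocyte-high libraries 4 rose and 0 fell, where 6.06% of all genes rose and 5.55% fell. Between the vectors in trained mice 0 rose and 5 fell, where 1.87% of all genes rose and 2.71% fell. They included Icam2 (−0.66), Cdh5 (−0.46) and Esam (−0.41), and the median of the 12 was −0.36, beside 0.018 over all genes. Without the 3 libraries 0 rose and 7 fell there, where 8.69% of all genes rose and 8.62% fell. The summed CPM of the 12 was 1448 to 1752 in the trained empty-vector group and 1224 to 1364 in the trained miR-21 group, and no marker was at 0 in every library of a group. It was 1248 to 1506 in the untrained empty-vector group and 1205 to 1362 in the untrained miR-21 group. The trained groups thus separated by vector in these sums as they did in Pgf. The part of the endothelial markers in the values of Pgf, Nrp2 and Kdr was not tested.

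**Figure D5:**
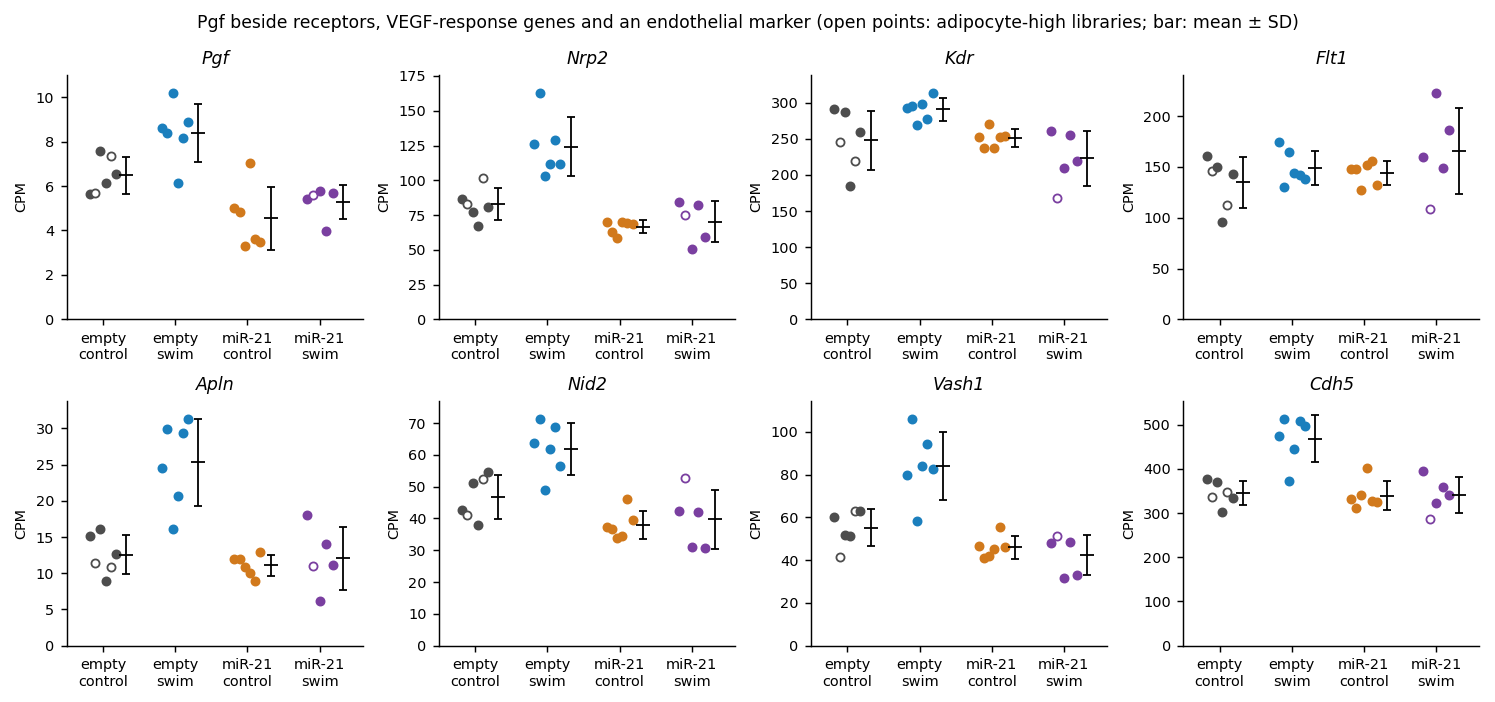
CPM of Pgf, the receptors Nrp2, Kdr and Flt1, the genes Apln, Nid2 and Vash1, and the endothelial marker Cdh5 by group, with 1 point per library and a bar for the mean ± SD. In Pgf, Nrp2, Kdr and Vash1 all 5 trained miR-21 libraries lie below all 6 trained empty-vector libraries, while those of Flt1, Apln, Nid2 and Cdh5 overlap.

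Of the other ligands of these families, Angptl7, a secreted protein of matrix-rich tissue, fell with training under the empty vector (log2 difference −2.38 ± 0.65, adjusted p = 0.0308, edgeR), as 1 of 6 tested of 8 listed, where 3.28% of all genes fell. It averaged 21.1 CPM in the untrained and 4.03 in the trained group. Angpt4 and Angptl8 did not pass the filter on low counts. Among 7 genes whose proteins bind or are acted on by the ligands, the integrin subunit gene Itga5 fell with training under the empty vector (−0.32 ± 0.087, adjusted p = 0.0288), where 3.28% of all genes fell. Without the 3 adipocyte-high libraries, Itga5 was also called lower with the miR-21 vector in untrained mice (−0.36, adjusted p = 0.019). The proteoglycan gene Sdc1 fell with the miR-21 vector in untrained mice (−1.41 ± 0.37, adjusted p = 0.049), where 1.37% of all genes fell. It fell by less without the 3 adipocyte-high libraries (−0.80, adjusted p = 0.0436). Lpl, the lipase that Angptl4 inhibits, and its endothelial anchor Gpihbp1 passed the test in no comparison with all libraries. Gpihbp1 with the miR-21 vector in trained mice had the smallest p among them (−0.46, adjusted p = 0.0571), and it was called without the 3 libraries (−0.36, adjusted p = 0.0466). Of 10 inhibitors of vessel growth, Vash1, a feedback inhibitor made by endothelium, rose with training under the empty vector (0.61, adjusted p = 0.0097), where 4.18% of all genes rose. It fell with the miR-21 vector in trained mice (−0.99, adjusted p = 0.000731), where 2.71% fell. Sema3f, a ligand of Nrp2, fell with the miR-21 vector in untrained mice (−0.86, adjusted p = 0.00431), where 1.37% fell. Without the 3 libraries 9 were tested. With training under the empty vector 1 rose and 1 fell, Sema3f (−0.31, adjusted p = 0.0363), where 6.06% rose and 5.55% fell. With the miR-21 vector 4 fell in trained mice, Sema3f among them (−0.35, adjusted p = 0.0188), where 8.62% fell. In untrained mice 3 fell and 0 rose, where 771 of 13389 genes were called in either direction, 387 of them as higher (2.89% of all genes).

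Regulators of these ligands' genes were looked at through lists: oxygen sensing for Vegfa and the PPAR lipid receptors for Angptl4. Of 25 genes induced by low oxygen, 4 fell and 0 rose with training under the empty vector, where 3.28% of all genes fell and 4.18% rose; they included the collagen prolyl hydroxylase P4ha1 (−0.91), the mitophagy gene Bnip3 (−0.56) and the glycolytic gene Eno1 (−0.29). Without the 3 adipocyte-high libraries 8 fell and 0 rose, the setting in which Vegfa also fell, where 5.55% of all genes fell and 6.06% rose. Of 11 genes of oxygen sensing, the prolyl hydroxylase Egln3 fell with training under the empty vector (−0.66, adjusted p = 0.0122, edgeR). Between the vectors in trained mice 0 of the 11 were called with all libraries. Without the 3 adipocyte-high libraries 3 of them rose there, Egln1 (0.34), Cited2 (0.44) and Epas1 (0.27), where 8.69% of all genes rose. Between the vectors in trained mice 1 of the 25 rose, the glucose transporter Slc2a1 (0.27, adjusted p = 0.0356), where 1.87% of all genes rose, and 9 rose and 1 fell without the 3 libraries, where 8.69% rose and 8.62% fell. Of 20 PPAR targets, Cpt2, of mitochondrial fatty acid import, rose with the miR-21 vector in untrained mice (0.48, adjusted p = 0.0475), where 0.881% of all genes rose, and 11 rose without the 3 libraries, where 2.89% rose. Angptl4, itself a PPAR target, did not pass the test in either setting (−1.15 and −0.17, as above). Between the vectors in trained mice 0 of the 20 PPAR targets were called with all libraries. Without the 3 libraries 4 of them rose and 1 fell there, where 8.69% of all genes rose and 8.62% fell.

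For each ligand, the genes with the most similar profile over the 23 libraries were taken by Spearman's rho of log2 CPM, among 12480 tested genes with a mean of at least 1 CPM. All libraries share the depth scaling, but their cell type marker scores differed, as above. These values describe the profiles only. Vegfb had the closest, Egflam at rho 0.92, then Stk39 (0.90) and Sdr39u1 (0.88), and Egflam kept 0.92 over the 20 libraries without high adipocyte markers. Angpt1 was followed by Idh3a (0.87), Pla2g4e (0.86) and Lclat1 (0.85), and Vegfa by Slk (0.85), Usp28 (0.84) and Nhlrc1 (0.83). For Pgf they were Fam102b (0.82, and 0.86 over the 20), Gnb2 (0.81) and Tinagl1 (0.79). For Angptl4 they were Pold4 (0.82), Smg9 (0.79) and Enkd1 (0.79), with 0.76, 0.71 and 0.75 over the 20. For Angpt2 they were Arpc3 (0.81), Wbp5 (0.81) and Ube2c (0.79), with 0.71, 0.71 and 0.77 over the 20. Over the 23 libraries Vegfc had no gene above 0.72, the value of Acbd4, followed by Sfxn5 (0.69) and Fam13c (0.68). Over the 20 these 3 had 0.67, 0.82 and 0.72.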

How the data were processed

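Per the labels' protocols, RNA taken up in TRIzol was made into strand-specific poly(A) libraries. The build was GRCm39 per the submitters' processing notes, with aligner and counting program not given in the sources used here. The authors deposited whole-number counts per gene and library, FPKM of the same libraries, and comparison tables with log2 fold changes, p-values and adjusted p-values. The 23 count columns matched a title, replicate 6 of the trained miR-21 group was not analysed here, and 46 other per-sample columns were not used. No row lacked a gene name (0 rows). No coordinates are given, since the annotation at hand, GENCODE M21, is of GRCm38 and served only for 3' UTR sequence. Nothing in the labels says that libraries came from separate mice, so p-values measure the spread between these samples.

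Counts were filtered with filterByExpr, scaled by TMM and fitted in 1 edgeR quasi-likelihood model (robust) with 4 groups and all 23 libraries; a gene was called at an adjusted p (Benjamini-Hochberg, over all 13501 tested) under 0.05. The SE is the log2 fold change over the square root of F. CPM are TMM-scaled, and log2 CPM used a prior count of 2. A list score is the mean centred log2 CPM of its genes. The script was tested on simulated data. Tools were Python 3.11.15 (matplotlib 3.10.9, pandas 2.3.3, numpy 2.4.6) and R 4.3.3 (DESeq2 1.42.0, limma 3.58.1, edgeR 4.0.16). Alternatives were DESeq2, limma voom, RLE and upper-quartile scaling, no filter, a filter at a mean of 1 CPM, only the groups compared, the title series as a term, and each of the 23 libraries left out; leaving out the 3 adipocyte-high libraries (score above 1) and the score as a covariate were chosen after seeing the data.

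The ligands and the 18 gene lists were chosen with earlier results of these data known. Named are all 7 ligands and the 3 genes most similar to each. For part of the lists and comparisons, up to 3 called genes with the smallest p (or 1 where none was called) are also named. Calls in other lists are not given here, among them the lymphatic endothelial, pericyte and smooth muscle, fibroblast and PPAR receptor lists. Flt1, Lpl, Gpihbp1, Cfd and Upk3b, and genes set beside these, were named after their values were seen. So were genes called only without the 3 adipocyte-high libraries.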

Additional observations from a re-analysis of the deposited data

Results flagged for a closer look

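In the trained miR-21 group (5 libraries), 3 values stood far from the rest of their group by Dixon's gap test, of 28 groups tested; chance alone gives about 1 in 20. Vegfa was lowest in replicate 2, at 321 CPM. Angpt2 was highest in the same library, at 13.1 CPM, and that library is 1 of the 3 with high adipocyte markers. Pgf was lowest in replicate 4, at 3.97 CPM, which is not among them; without that library Pgf fell by 0.57 on the log2 scale with an adjusted p of 0.0752 (edgeR) in the comparison of vectors in trained mice.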

How the results depend on the processing

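Of 1148 values of single ligands under the alternatives, 1042 kept their direction and side of the threshold, 5 lost a call, 10 gained one and 91 changed sign, 0 of them called with either setting. The number of ligands called for training under the empty vector was 1 in place of 0 with DESeq2, limma voom, without the 3 adipocyte-high libraries and with the adipocyte score (0 to 1 with 1 library left out). For the miR-21 vector in untrained mice it was 1 in place of 0 with DESeq2 (0 to 2). For the miR-21 vector in trained mice it was 0 in place of 1 with only the groups compared (0 to 1). For training under the miR-21 vector it was 1 in place of 0 with the title series as a term (0 to 0), and that call was Angpt2 (1.04, adjusted p = 0.0424, edgeR). Under that term, the comparison sets only replicates 1 and 2 of the trained miR-21 group against the untrained miR-21 libraries. These 2 alone share the leading digits 13 with them. Their Angpt2 stood at 5.03 and 13.1 CPM, and replicate 2 is adipocyte-high. For the interaction the number of ligands called was 0 throughout (0 to 0). Over all genes, calls for training under the empty vector numbered 1007, against 1716 with limma voom, 164 with the title series and 1555 without the 3 libraries (607 to 1922 with 1 left out). For the miR-21 vector in untrained mice there were 304, against 150 with no filter, 1235 with DESeq2, 1353 with limma voom, 1622 with only the groups compared, 911 with the title series, 771 without the 3 libraries and 0 with the adipocyte score (17 to 2885). For the miR-21 vector in trained mice there were 618, against 970 with DESeq2, 2715 with limma voom, 165 with only the groups compared, 2318 without the 3 libraries and 1182 with the score (330 to 1871). For training under the miR-21 vector there were 23, against 41 with upper-quartile scaling, 0 with no filter, 378 with DESeq2, 314 with limma voom, 0 with only the groups compared, 1076 with the title series, 134 without the 3 libraries and 0 with the score (0 to 86). For the interaction there were 73, against 719 with DESeq2, 147 with limma voom, 25 with the title series and 1 with the score (18 to 358). The highest counts with 1 library left out came without replicate 2 of the trained miR-21 group, except the last pair of ranges, which came without its replicate 5. The lowest, in the order above, came without trained empty-vector replicate 5, untrained empty-vector replicate 5, trained empty-vector replicate 2, untrained miR-21 replicate 1 and trained empty-vector replicate 5. For training under the miR-21 vector the lowest, 0, was the same without untrained miR-21 replicate 1, 3, 4 or 6. The cause was not tested. By Pearson's r, 1 of the 3 most similar genes was shared for Vegfb, Vegfc and Angpt1 and 0 for Angpt2 and Angptl4. No paired analysis was possible because the titles give the groups no shared replicate numbers. Depth limits Pgf, Angpt2 and Angptl4 most, with as few as 31 counts in a library.

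Sign changes of single ligands, all of log2 differences that were not called, are given by setting. With the adipocyte score as a covariate, training under the empty vector gave −0.069 for Vegfb, 0.052 for Vegfc and 0.33 for Angpt2. The miR-21 vector gave −0.21 for Vegfa, −0.11 for Vegfb, 0.0075 for Angpt2 and 0.10 for Angptl4 in untrained mice, and 0.049, 0.079, −0.30 and −0.50 for the same 4 in trained mice. Training under the miR-21 vector gave 0.12 for Vegfb and −0.62 for Angptl4, and the interaction 0.26 for Vegfa, 0.18 for Vegfb, −0.11 for Vegfc, −0.31 for Angpt2 and −0.61 for Angptl4. With limma voom they were 0.0021 for Vegfc (training, empty vector), −0.097 for Vegfa (vectors, untrained), 0.027, 0.093, −0.23 and −0.58 for Vegfa, Vegfb, Angpt2 and Angptl4 (vectors, trained), 0.16 and −0.63 for Vegfb and Angptl4 (training, miR-21 vector), and 0.12, 0.018, −0.16 and −0.073 for Vegfa, Vegfb, Vegfc and Angptl4 (interaction). Without the 3 adipocyte-high libraries they were 2.6e-05, −0.12, 0.031, 0.074, −0.32 and −0.31 for the same ligands and comparisons in that order, then 0.14, −0.044 and −0.49 for Vegfb, Angpt2 and Angptl4 (training, miR-21 vector) and 0.15, 0.024, −0.055 and −0.13 for the interaction. With the title series they were −0.011 for Vegfb and 0.78 for Angpt2 (training, empty vector), and 0.0066, 0.029, −0.41 and −0.14 for Vegfa, Vegfb, Angpt2 and Angptl4 (vectors, trained). Upper-quartile scaling gave −0.0018 for Vegfa (vectors, untrained), and 0.02 for Vegfb and 0.01 for Vegfc (training, miR-21 vector), where a filter at 1 CPM gave Vegfb 0.00013 and only the groups compared 0.0049. With 1 library left out, ranges that crossed 0 were −0.10 to 0.0026 for Vegfc (training, empty vector) and −0.031 to 0.068 for Vegfa (vectors, untrained). Between the vectors in trained mice they were −0.11 to 0.036 for Vegfa, −0.15 to 0.079 for Vegfb, −0.32 to 0.35 for Angpt2 and −0.30 to 0.42 for Angptl4. For training under the miR-21 vector they were −0.085 to 0.14 for Vegfb, −0.079 to 0.046 for Vegfc, −0.042 to 0.63 for Angpt2 and −0.49 to 0.24 for Angptl4. For the interaction they were −0.14 to 0.017 for Vegfa, −0.027 to 0.098 for Vegfc and −0.23 to 0.023 for Pgf.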
